A study of Mus musculus with 16 samples.

Results

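The 37 genes described here encode the proteins that take fatty acids into cardiac cells, carry them into mitochondria and oxidise them, together with genes known as targets of PPAR nuclear receptors. They were picked by symbol from the 36499 gene entries of the deposited count table. Each symbol stood on 1 entry, and all 37 genes were among the 15255 that passed the filter on low counts. They fall into 10 roles, from uptake and activation (Lpl, Angptl4, Cd36, Slc27a1, Fabp3, Acsl1) to transcriptional regulators (Ppara, Ppargc1a).

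RNA was sequenced from cardiac tissue of mice kept on normal chow diet, in 16 libraries of 4 genotypes with 4 libraries each. The groups are wild type (wt in the labels), Fgf21 knockout (fgf21), Clpp knockout (clpp) and knockout of both genes (dko, here double KO). CLPP forms the proteolytic core of ClpXP, a protein-degrading machine inside mitochondria, and FGF21 is a hormone that stressed tissues release. Deletion of Clpp was whole-body: for Clpp KO a Clpp fl/fl line was crossed to a Cre line driven by the β-actin promoter and heterozygous Clpp+/- offspring were bred to homozygosity, and double KO came from Clpp fl/fl Fgf21 fl/fl mice and the same kind of Cre line. Breeding of the single Fgf21 KO, age, sex, and whether each library had a mouse of its own are not stated in the labels. Each p-value therefore reflects only spread among the libraries at hand, and that spread may be technical. In pieces of tissue, fewer cells of a type and less RNA per cell cannot be told apart.

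Library totals ran from 36260545 to 51820727 counts. Clpp had 267 to 355 counts in the libraries lacking it and 1435 to 2636 in the others. Fgf21 had 0 counts in all 8 libraries lacking it, 0 to 5 in wild type and 6 to 28 in Clpp KO. Its counts therefore hardly tell Fgf21 KO from wild type. Transcripts of mitochondrial DNA took 56.1% to 60.8% of counts in both groups without Clpp and 25.5% to 39.4% in the others. Defining markers of ventricular heart muscle were present in every library (Myl2, the ventricular regulatory myosin light chain, at 3679 to 9154 CPM). Wild-type replicates 2 and 4 stood apart: their 10 atrial markers summed to 10430 and 6635 CPM, against 149.9 and 142 in wild-type replicates 1 and 3, and the fat marker Adipoq was at 7.98 and 21.5 against 0.183 and 0.0681. Wild-type replicate 2 also held 4.19 CPM of 4 Y-linked transcripts, against 47.5 to 81.7 in the other 15 libraries. Wild-type replicates 1 and 3 were the most similar pair. Their counts differed by more than sampling noise (chi-square per degree of freedom 5.6, against 22.4 to 415 for other pairs within groups). They were kept as separate samples, but this does not show separate mice, since 2 libraries of 1 tissue piece can differ too. The liver marker Alb was also alike in them, at 33.0 and 32.4 CPM, against 0.619 and 1.35 in replicates 2 and 4. Wild type may thus hold fewer than 4 independent samples, and fits without replicates 2 and 4 rest on this pair alone.

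As background, lipoprotein lipase releases fatty acids from circulating triglyceride at the vessel wall, and CD36 and fatty acid transport proteins bring them into the cell. Acyl-CoA synthetase activates them, the carnitine shuttle moves them across the inner mitochondrial membrane, and the β-oxidation cycle cuts them to acetyl-CoA while passing electrons to ubiquinone. The adult heart draws most of its energy from this route, and PPARα with its coactivator PGC-1α drives many of these genes when fatty acid supply is high.

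The sequences below are shown because they bear on how far these genes can be measured apart, or on genes that lie side by side. Acot1 and Acot2, neighbouring acyl-CoA thioesterase genes 15616 bp apart on chromosome 12, share an unbroken coding run of 273 bases, here in capitals throughout. It lies within 1 exon of each gene on the + strand of GRCm38, chr12:84017006-84017278 in Acot1 and chr12:83992728-83993000 in Acot2 (GENCODE M21).
Acot1 and Acot2: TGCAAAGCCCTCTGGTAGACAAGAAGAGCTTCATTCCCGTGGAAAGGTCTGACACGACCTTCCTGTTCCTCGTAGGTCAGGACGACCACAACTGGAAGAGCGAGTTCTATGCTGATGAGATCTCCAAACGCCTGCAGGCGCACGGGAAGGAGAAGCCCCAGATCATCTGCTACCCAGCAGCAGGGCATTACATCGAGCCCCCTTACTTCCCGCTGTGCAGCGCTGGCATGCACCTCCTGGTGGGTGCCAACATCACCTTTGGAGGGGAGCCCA
Of the 31-base words in the coding sequence of Acot1, 52.6% also occur in that of Acot2, and 48.5% the other way. Counted over whole transcripts, these shares were 16.7% and 29.9%. Reads from such stretches cannot be placed on 1 of both genes, so the split of counts between Acot1 and Acot2 is uncertain. Over whole transcripts, 79.7% of the 31-base words of Cpt1b also lie in Gm44502, 50.1% of those of Fabp3 lie in other genes (most in the pseudogene Fabp3-ps1), and 49.9% of those of Etfb do (most in Gm45233), so these levels are uncertain in the same way. Acadvl shares 33.2% of its words with Dvl2.

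Hadha and Hadhb, the α and β subunits of the mitochondrial trifunctional protein, lie head to head on chromosome 5 with 85 bp between the gene bodies. The RefSeq promoter of Hadhb (GRCm38.p6, chr5:30155003-30155302, + strand) spans that gap, which is set in capitals (chr5:30155163-30155247).
Hadhb: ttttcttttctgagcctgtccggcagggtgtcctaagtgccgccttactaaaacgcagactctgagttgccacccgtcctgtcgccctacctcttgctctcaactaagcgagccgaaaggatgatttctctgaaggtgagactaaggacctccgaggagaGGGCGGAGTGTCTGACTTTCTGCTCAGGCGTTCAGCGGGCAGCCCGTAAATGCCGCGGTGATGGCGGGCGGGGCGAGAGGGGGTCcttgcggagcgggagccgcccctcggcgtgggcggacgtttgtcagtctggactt
The level of Hadha divided by that of Hadhb, both in CPM, lay between 0.721 and 0.942 over the 16 libraries, while Hadhb itself ranged from 308 to 1355 CPM.

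RefSeq promoters of 300 bases (250 before and 50 after the start) were available for 32 of the 37 genes. The half-site AGGTCA of nuclear receptors, on either strand, was found in promoters of 8 of these 32 genes (25%), namely Acadm, Acadvl, Cd36, Cpt1a, Echs1, Plin2, Plin5 and Ucp3, and in 16.3% of all 32851 promoters. A direct repeat of AGGNCA with 1 base between the copies, the form that PPAR binds, was found in 0 of the 32 and in 0.381% of all promoters; its copies hold the half-site wherever N is T. Ucp3, a mitochondrial uncoupling protein of muscle, held the half-site at 2 places and Cpt1a, the liver form of the outer carnitine palmitoyltransferase, at 1; both promoters (GRCm38.p6, + strand, chr7:100472741-100473040 and chr19:3323051-3323350) are shown with half-sites in capitals.
Ucp3: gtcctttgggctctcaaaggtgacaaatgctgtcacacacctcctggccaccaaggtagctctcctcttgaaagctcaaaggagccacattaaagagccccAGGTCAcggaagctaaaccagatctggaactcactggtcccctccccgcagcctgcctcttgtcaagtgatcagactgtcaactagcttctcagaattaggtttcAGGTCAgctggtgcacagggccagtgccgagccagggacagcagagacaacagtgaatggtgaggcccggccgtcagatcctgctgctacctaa
Cpt1a: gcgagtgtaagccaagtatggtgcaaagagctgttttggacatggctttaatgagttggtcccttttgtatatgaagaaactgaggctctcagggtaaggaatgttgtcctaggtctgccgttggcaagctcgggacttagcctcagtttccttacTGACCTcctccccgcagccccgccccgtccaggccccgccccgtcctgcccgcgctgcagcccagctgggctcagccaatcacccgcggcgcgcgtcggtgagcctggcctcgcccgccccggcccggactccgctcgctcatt
A match is only a match of letters within this window.

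Levels are given as CPM (counts per library size, scaled to a common total by TMM), and levels of different genes are compared only per kilobase of the principal transcript. Fabp3, the fatty acid-binding protein of heart muscle, had the highest mean level per length, 2439 CPM per kb over the 16 libraries. Lpl (lipoprotein lipase) followed at 633.9, Hadhb at 538.8, Etfb (a subunit of the electron transfer flavoprotein) at 425.1 and Acaa2 (the last enzyme of the β-oxidation cycle) at 367.3. At the low end stood Cpt1a at 6.73, Angptl4 (an inhibitor of lipoprotein lipase) at 3.89, Ehhadh (the peroxisomal bifunctional enzyme) at 2.69 and Ppara (the receptor PPARα) at 0.842 CPM per kb. Cpt1b, the muscle form of the carnitine palmitoyltransferase, stood at 171 CPM per kb. Among neighbours in this order, the gap was larger than the SD of both genes over the 16 libraries for Fabp3 over Lpl, Decr1 over Acads and Ehhadh over Ppara; all other neighbours differed by less than the larger of their spreads. The order depends on the length used: per kb of all merged exons Lpl had 248.9 (6 in order) and Hadhb 167.3 (10), with Acaa2 (367.3) and Acadl (337.9) next after Fabp3 (2439), while Cpt1a, Angptl4, Ehhadh and Ppara were again the lowest 4.

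**Figure D1:**
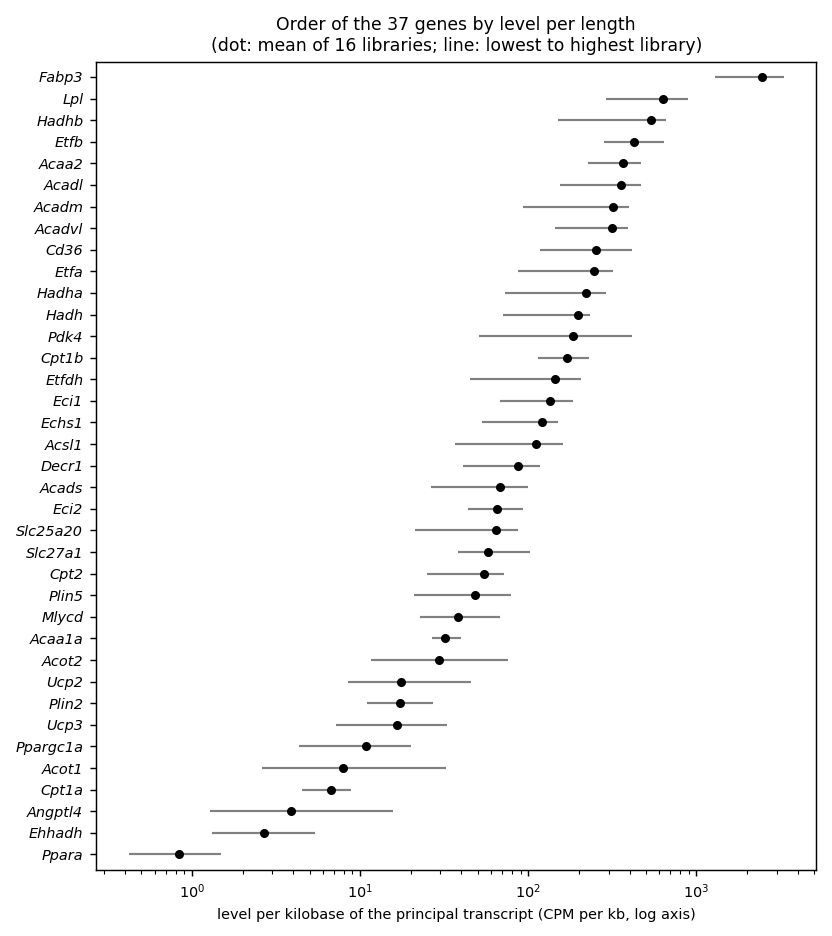
Level per kilobase of the principal transcript, on a log axis, for the 37 genes in order of their mean; dots are means of 16 libraries and lines run from the lowest to the highest library. Fabp3 leads at 2439 CPM per kb and Ppara is lowest at 0.842, and the lines of most neighbours overlap.

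No gene of the 37 was called by edgeR in any of the 8 comparisons, at an adjusted p of 0.05 over all 15255 genes. The largest differences stood between single libraries of the same genotype. Within groups, the SD of log2 levels had a median of 0.404 over the 37 genes and 0.261 over all tested genes, with 12 degrees of freedom. Acot1 (1.11), Pdk4 (1.04) and Angptl4 (0.972) had an SD above the 95th percentile of all genes, and Acaa1a, a peroxisomal thiolase, had the smallest of the 37 (0.125).

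**Figure D2:**
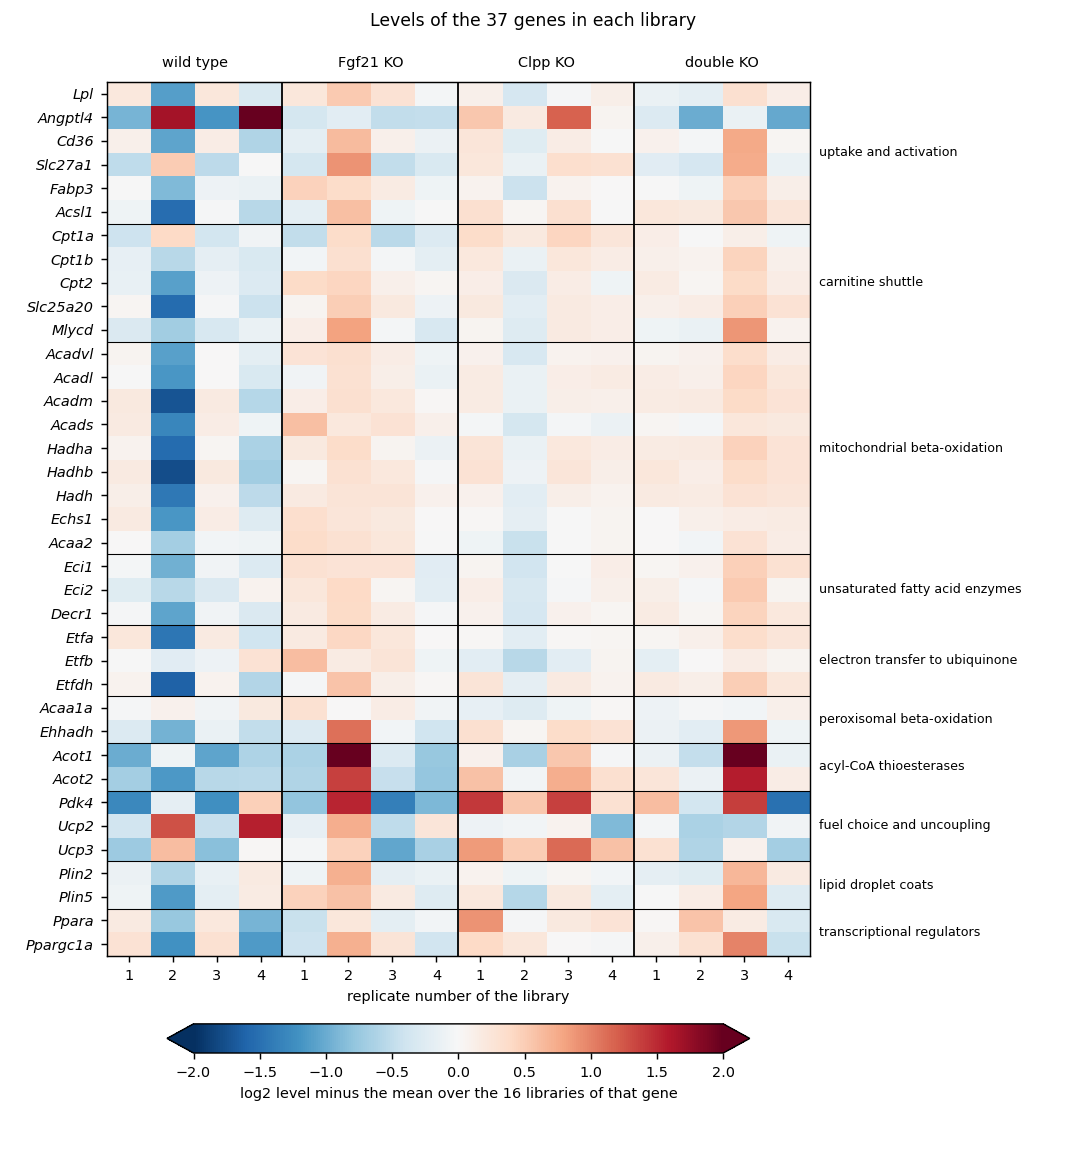
Heat map of the 37 genes (rows, grouped by role) in the 16 libraries (columns, by genotype and replicate number); colour is the log2 level minus the mean of that gene over all libraries. Columns of 1 library stand out more than blocks of 4: Fgf21 KO replicate 2 and double KO replicate 3 are high for most genes, and wild-type replicate 2 is low for most.

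Fgf21 KO replicate 2 and double KO replicate 3 carried the highest values of their groups for most of the genes. Fgf21 KO replicate 2 was the highest of its group in 29 of 37 genes (78.4%, against 28.2% of all tested genes), and double KO replicate 3 in 31 of 37 (83.8%, against 32.1%). Acot1, the cytosolic acyl-CoA thioesterase, was at 7.95, 73.0, 10.1 and 7.29 CPM in Fgf21 KO replicates 1 to 4 and at 11.4, 8.87, 73.7 and 11.3 CPM in double KO. The high library was thus 9.18 times the median of the other 3 in Fgf21 KO and 6.54 times in double KO, and no other library exceeded 17.8 CPM. For Acot2, the mitochondrial thioesterase, levels were 36.9, 145, 40.7 and 32.7 CPM in Fgf21 KO and 66.0, 51.8, 166 and 62.4 CPM in double KO. The same 2 libraries were high for Ehhadh, at 6.23, 16.1, 7.24 and 5.71 CPM in Fgf21 KO and 6.96, 6.50, 13.8 and 7.12 CPM in double KO. Slc27a1, a fatty acid transport protein, followed the same pattern, with 121, 287, 109 and 124 CPM in Fgf21 KO and 132, 121, 257 and 140.1 CPM in double KO.

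Pdk4, the kinase that shuts off pyruvate dehydrogenase, varied widely in level in every group. It was at 204, 440.1, 213 and 698 CPM in wild type, 289, 1442, 194 and 267 in Fgf21 KO, 1335, 723, 1286 and 619 in Clpp KO and 763, 386, 1295 and 177 in double KO. Fgf21 KO replicate 2 was 5.39 times the median of the other 3, while in double KO the 4 values spread from 177 to 1295 CPM with no single one apart. Some genes of the same pathway outside the 37, chosen after their values were seen, were high in both libraries too. Pnpla2, the first lipase of stored triglyceride, was at 273, 650.1, 258 and 189 CPM in Fgf21 KO and 266, 249.7, 718 and 295 CPM in double KO. Cat, the catalase of peroxisomes, was at 124, 269.5, 135 and 127 CPM and 202, 188, 355 and 257 CPM in the same groups. For Pnpla2 and Cat the same 2 libraries were the highest of their groups. Other genes of the pathway, also chosen after their values were seen, were low in both libraries. Hk2 was at 0.571 (Fgf21 KO replicate 2) and 0.605 (double KO replicate 3) times the median of the other 3. Lpin1 was at 0.604 and 0.629 times.

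**Figure D3:**
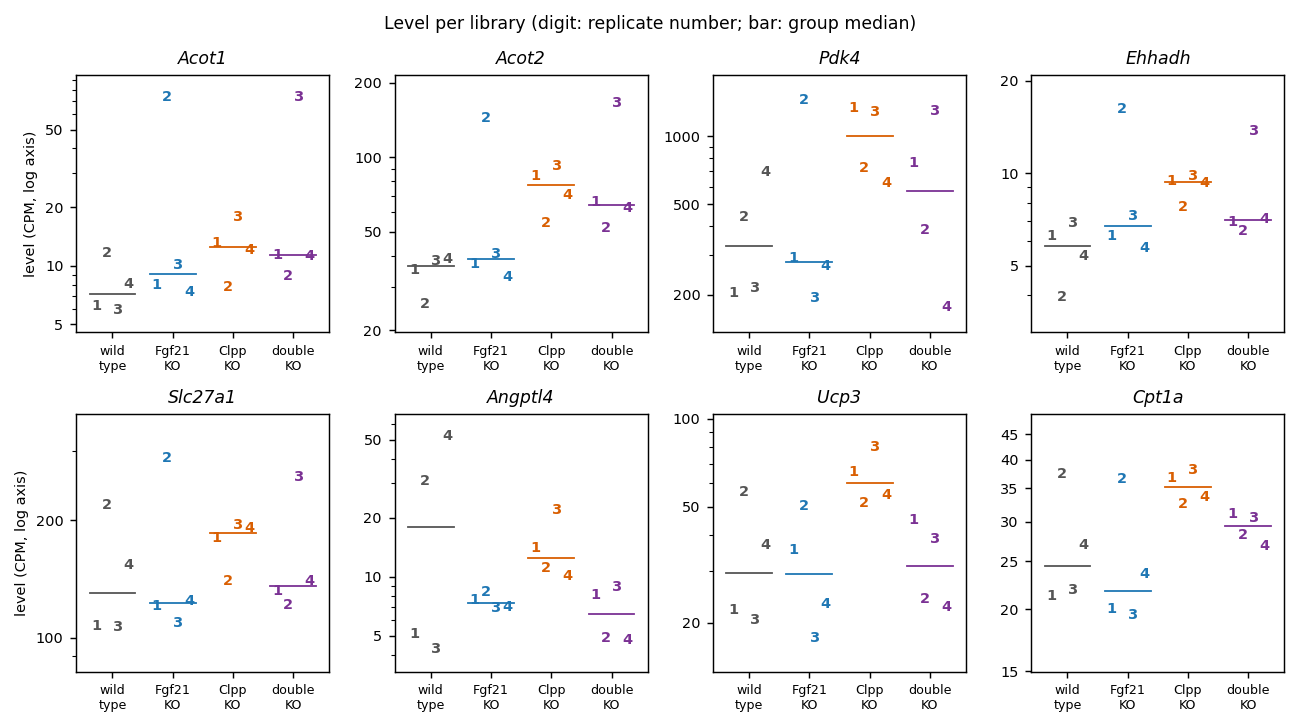
Level in CPM on a log axis for 8 genes, by genotype; each digit is 1 library, named by its replicate number, and the bar is the group median. Replicate 2 of Fgf21 KO and replicate 3 of double KO lie far above the rest for Acot1, Acot2 and Ehhadh, and wild-type replicates 2 and 4 are the highest 2 libraries of all for Angptl4.

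At the other end, wild-type replicate 2 was the lowest of its group in 28 of 37 genes (75.7%, against 33.1% of all tested genes), Clpp KO replicate 2 in 32 (86.5%, against 31.2%), Fgf21 KO replicate 4 in 25 (67.6%, against 24.4%) and double KO replicate 2 in 21 (56.8%, against 21.9%). Hadhb was at 1196, 308, 1203 and 653 CPM in wild type and at 1284, 977, 1243 and 1146 CPM in Clpp KO. Replicate 2 was the lowest in both groups, by far more in wild type. Wild-type replicates 2 and 4 were instead the highest 2 of their group for 8 genes, Angptl4, Slc27a1, Cpt1a, Acaa1a, Acot1, Pdk4, Ucp2 and Ucp3. Ucp2, an uncoupling protein found in many cell types, was at 47.4, 148, 45.0 and 181 CPM in wild type, and its Fgf21 KO levels were 55.3, 102, 43.5 and 73.0 CPM.

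Markers of other cell types moved with these libraries. In wild type, Fgf21 KO and Clpp KO the library with the lowest values of most of the 37 genes also had the highest sum of 10 atrial markers in its group (10430, 2995 and 3677 CPM, against 141.7 to 6635, 408.4 to 1665 and 249 to 1724 CPM in the others). In double KO it did not: replicate 2 had 215.4 CPM, the lowest of its group, and replicate 1 the highest, 1528. Single atrial markers did not all follow the sum. In Fgf21 KO, Bmp10 and Tbx5 were at 0.0995 and 30.1 CPM in replicate 4, against 71.9 and 33.8 in replicate 2. The sum of 6 fibroblast markers was also highest of its group in wild-type replicate 2 (964.3 CPM), Fgf21 KO replicate 4 (551.1) and Clpp KO replicate 2 (834.8). In double KO it was highest in replicate 1 (543.2), with 508.2 in replicate 2. Single fibroblast markers did not all follow, as Dcn was at 247.5 CPM in Fgf21 KO replicate 4 and 281.9 in replicate 2. Fat markers summed to 479.7 CPM in Fgf21 KO replicate 2 and 489.5 CPM in double KO replicate 3, the highest of their groups, of which Fabp4, also expressed by endothelial cells, made up 468.1 and 489.2 CPM. The defining fat markers were low there, with Adipoq at 1.08 and 0 CPM and Ucp1 at 0.0392 and 0 CPM. Of the 9 general fat markers 7 were at 0 in some library and none in all. Both of these libraries had the lowest sums of their groups for 6 macrophage markers (71.09 and 76.99 CPM, against 89.02 to 102.6 and 109.2 to 126.5) and for 6 general heart muscle markers (17840 and 18940 CPM, against 19000.0 to 25040 and 20000.0 to 23310). Of the muscle markers, Actc1 (3682 and 4097 CPM, against 5211 to 7342 and 6415 to 7875) and Mybpc3 were lowest in both libraries. Tnnt2, Tnni3 and Ryr2 were lowest in neither, and Tnnt2 (5970 CPM) and Tnni3 (2840 CPM) were highest of their group in double KO replicate 3. General heart muscle markers were at 10870 CPM in wild-type replicate 2, against 20030 to 20720 in the other wild-type libraries. The part of these cell types in the levels of the 37 genes was not tested.

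**Figure D4:**
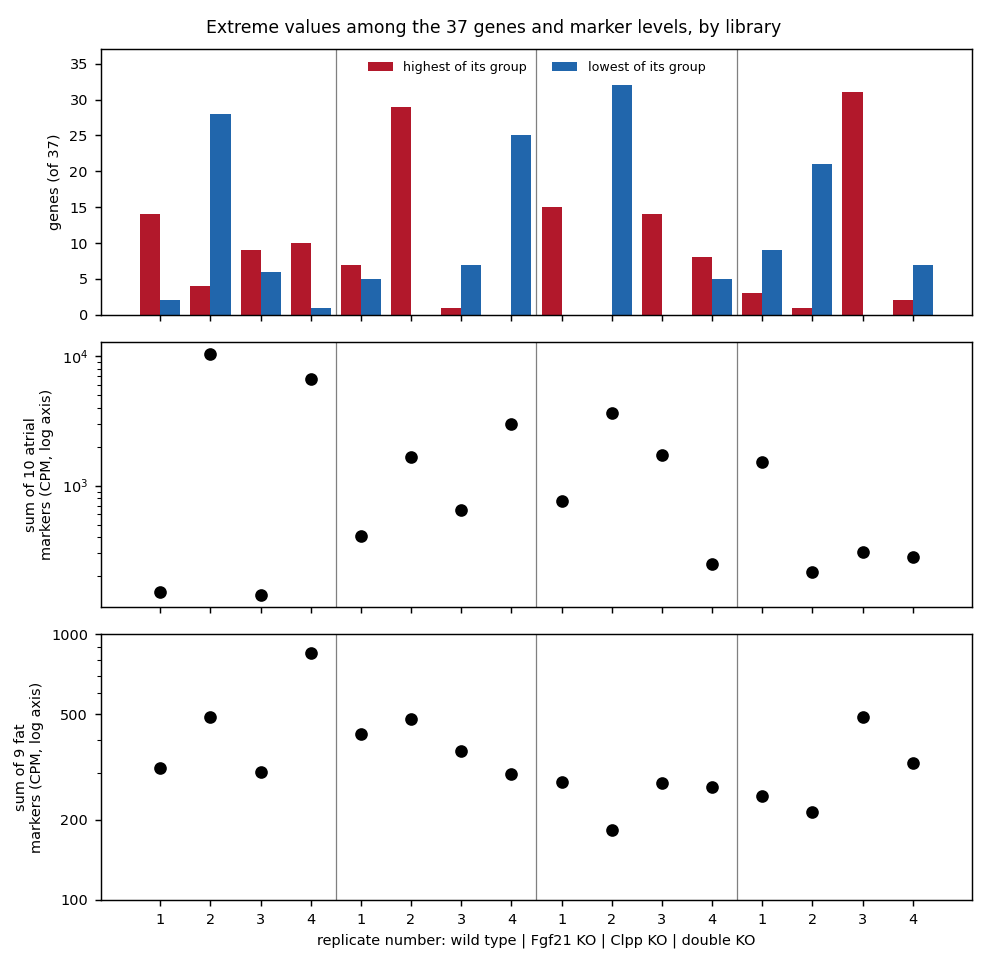
Top, number of the 37 genes for which a library was the highest or the lowest of its genotype; middle and bottom, summed levels of 10 atrial and 9 fat markers in CPM on log axes, for the same 16 libraries. Fgf21 KO replicate 2 and double KO replicate 3 were highest in 29 and 31 genes, and Clpp KO replicate 2 was lowest in 32.

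Clpp KO was compared with wild type to ask how loss of the protease changes the tissue. The thioesterases, Pdk4, Ucp3 and the carnitine palmitoyltransferases were at higher levels in Clpp KO, by amounts that did not pass edgeR's test, and Ucp2 and Angptl4 at lower mean levels. The log2 fold change was above 0 for 33 of the 37 genes and below 0 for 4 (Angptl4, Ucp2, Etfb and Acaa1a), with a median of 0.34 against -0.04 over all genes; with library totals alone, which lower the median of all genes to -0.79, 34 of the 37 lay below 0. edgeR called 0 of 37, against 1.63% of all genes, and 7 (18.9%) had an unadjusted p under 0.05, against 21.3% of all genes. DESeq2 called 1 (Cpt1b), against 5.51% of all genes. limma voom with library quality weights called 8 (21.6%), all higher, against 18.2% of all genes in either direction and 9.09% higher.

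Among uptake genes, Acsl1, which activates long-chain fatty acids, was at 391, 144, 409 and 281 CPM in wild type and 516, 424, 518 and 413 in Clpp KO. The groups did not overlap, and the log2 fold change was 0.61 ± 0.26 (SE, adjusted p = 0.194). In the carnitine shuttle, Cpt1b was at 438, 331, 431 and 396 CPM in wild type and 566, 447, 568 and 539.8 in Clpp KO, again without overlap, with a log2 fold change of 0.41 ± 0.15 (SE, adjusted p = 0.146) by edgeR. DESeq2 gave 0.42 ± 0.14 with an adjusted p of 0.0479. Acot2 was at 34.9, 25.4, 38 and 38.7 CPM in wild type and 83.9, 54.2, 92.4 and 70.3 in Clpp KO, with no overlap, and its log2 fold change was 1.13 ± 0.46 (SE, adjusted p = 0.187). Ehhadh was at 6.23, 3.94, 6.86 and 5.39 CPM in wild type and 9.42, 7.78, 9.77 and 9.27 in Clpp KO, and its log2 fold change was 0.69 ± 0.31 (SE, adjusted p = 0.22). These were the 4 genes of 37 (10.8%) whose Clpp KO libraries all lay above all wild-type libraries, a pattern held by 7.75% of all genes. For Pdk4 the log2 fold change was 1.35 ± 0.70 (SE, adjusted p = 0.274), and wild-type replicate 4 lay above the lowest Clpp KO library.

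Ucp3 was at 22.1, 56.0, 20.4 and 37 CPM in wild type and 65.4, 51.5, 79.9 and 54.9 in Clpp KO. Only wild-type replicate 2 reached the range of Clpp KO, and the log2 fold change was 0.89 ± 0.36 (SE, adjusted p = 0.18). Ppara was at 3.10, 1.61, 3.18 and 1.43 CPM in wild type and 5.10, 2.71, 3.13 and 3.33 in Clpp KO, with a log2 fold change of 0.61 ± 0.28 (SE, adjusted p = 0.222), and the groups overlapped. Among the 9 genes of the mitochondrial β-oxidation cycle the log2 fold changes ran from 0.03 (Acads, the short-chain dehydrogenase) to 0.52 (Hadha), with a median of 0.34. Etfb had -0.21 and Etfdh, the dehydrogenase that hands electrons to ubiquinone, 0.46.

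Much of this rested on wild-type replicates 2 and 4. Angptl4 was at 5.09, 30.8, 4.26 and 52.2 CPM in wild type and 14.0, 11, 21.9 and 10.1 in Clpp KO, so that Clpp KO lay above wild-type replicates 1 and 3 and below replicates 2 and 4. Its log2 fold change was -0.69 ± 0.61 (SE, adjusted p = 0.514) with all libraries and 1.61 ± 0.32 (SE, adjusted p = 0.0271) without those 2. That was the only gene of the 37 that edgeR called without them, against 1.02% of all genes tested then. Ucp2 likewise went from -0.97 to 0.22 on the log2 scale without them. By voom it had 0.21, close to the fit in which wild type is replicates 1 and 3 alone. Without them, Hadhb went from 0.47 to -0.04 ± 0.12, Ucp3 from 0.89 to 1.57 ± 0.41 (SE, adjusted p = 0.119) and Pdk4 from 1.35 to 2.25 ± 0.97 (SE, adjusted p = 0.417), each a log2 fold change with its SE. Acsl1 went from 0.61 to 0.23, Ppara from 0.61 to 0.19 and Etfdh from 0.46 to 0.02. The β-oxidation cycle then had 2 genes above 0 and 7 below, and the median of the 37 was 0.08. With Fgf21 KO replicate 2 and double KO replicate 3 left out, libraries that were chosen for their own high values of these genes, edgeR called Acot2 (adjusted p = 0.00375) and Ehhadh (adjusted p = 0.0321), against 2.18% of all genes. Neither library belongs to Clpp KO or wild type, so the libraries compared were the same. Leaving them out removes spread of these very genes from the shared fit, so these 2 calls are not counted as support.

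**Figure D5:**
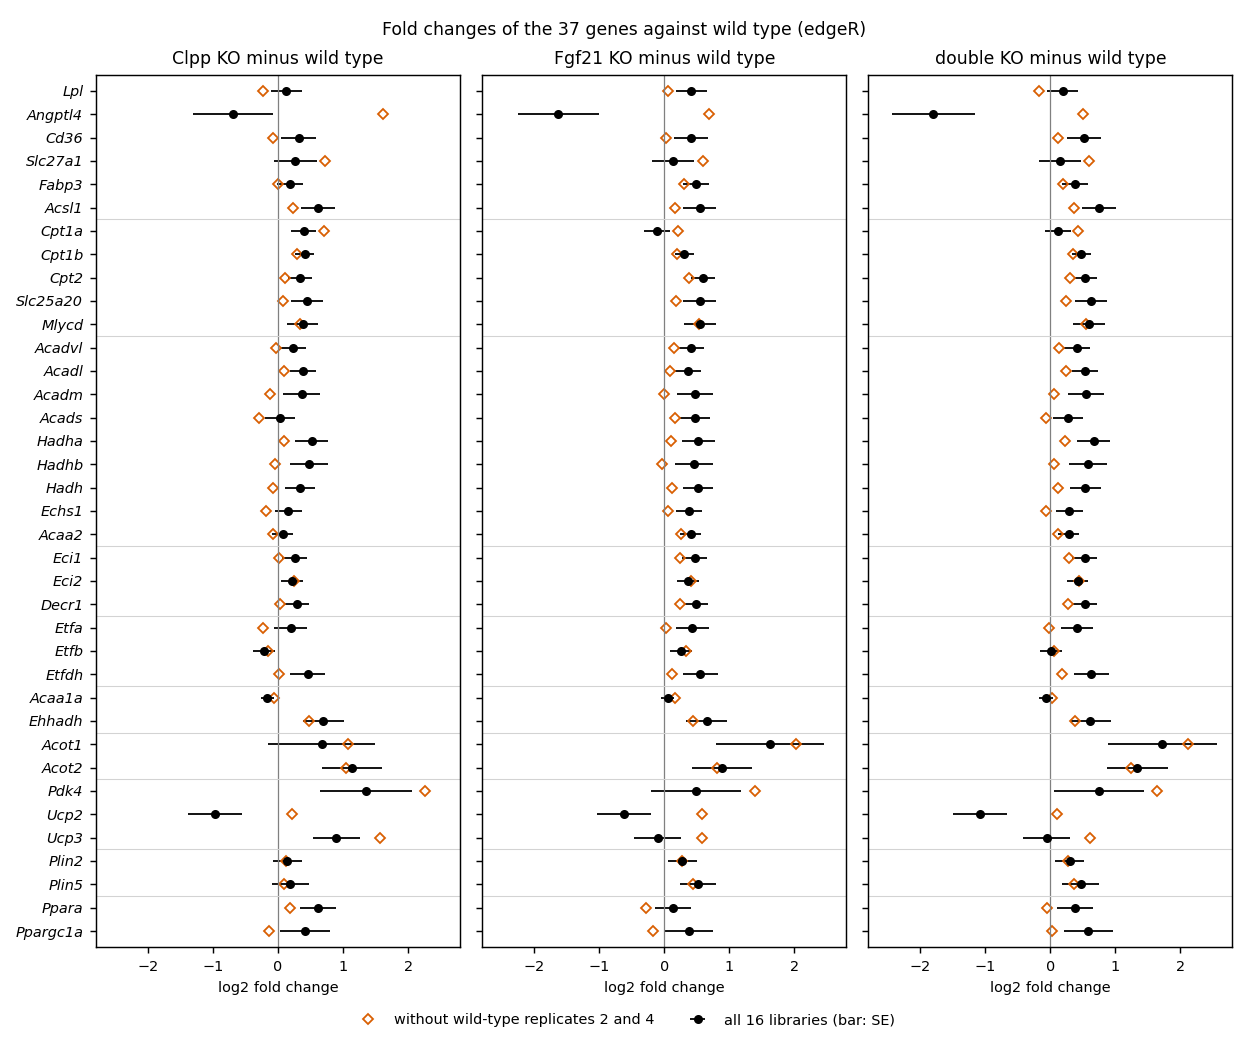
Log2 fold change against wild type for the 37 genes in Clpp KO, Fgf21 KO and double KO; black dots are from all 16 libraries with bars of 1 SE, and open diamonds are from the fit without wild-type replicates 2 and 4. In Clpp KO the diamonds of Hadha and Hadhb lie nearer to 0 than the dots, and for Angptl4 they change sign in all 3 comparisons.

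In Fgf21 KO against wild type, log2 fold changes were above 0 for all 9 genes of the β-oxidation cycle, all 3 unsaturated fatty acid enzymes and 4 of 5 genes of the carnitine shuttle, none past the test; Cpt1a had -0.11. The β-oxidation cycle had a median of 0.465, which was 0.10 when wild-type replicates 2 and 4 were left out, with 8 of 9 genes above 0. The log2 fold change was above 0 for 33 of 37 genes, with a median of 0.43 against -0.01 over all genes, and with library totals alone for 30 of 37. edgeR called 0 of 37, against 0.0459% of all genes, and 11 (29.7%) had an unadjusted p under 0.05, against 9.17% of all genes. DESeq2 and voom also called 0 of 37, against 0.223% and 0.662% of all genes, with 17 and 5 genes under 0.05 unadjusted. Here and below, counts of genes at an unadjusted p under 0.05 with no share of all genes beside them are not read as results. Cpt2, the inner carnitine palmitoyltransferase, was at 114, 59.4, 117 and 104 CPM in wild type, and Fgf21 KO had 164, 170.0, 134 and 129, with a log2 fold change of 0.60 ± 0.18 (SE, adjusted p = 0.538). Decr1, a reductase needed for polyunsaturated fatty acids, was at 248, 122, 241 and 207 CPM in wild type, and Fgf21 KO had 287, 328, 282 and 248, with 0.49 ± 0.19 (SE, adjusted p = 0.538). Cpt2 and Decr1 were the 2 genes of 37 (5.41%) whose Fgf21 KO libraries all lay above wild type, against 1.15% of all genes. For Decr1 the lowest Fgf21 KO library and the highest wild-type library were close, at 248 and 248 CPM.

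Plin5, a coat protein of lipid droplets in oxidative tissue, was at 85.3, 41.4, 79.0 and 102 CPM in wild type, and Fgf21 KO had 125, 136, 104 and 75.9. The groups overlapped, and the log2 fold change was 0.52 ± 0.28 (SE, adjusted p = 0.551). Acot1 had a log2 fold change of 1.63 ± 0.83 (SE, adjusted p = 0.543) and Acot2 of 0.90 ± 0.46 (SE, adjusted p = 0.545), and both rested on Fgf21 KO replicate 2: without it and double KO replicate 3 they were 0.09 and 0.105. Angptl4 was at 7.61, 8.33, 6.90 and 6.99 CPM in Fgf21 KO, within the wide range of wild type, with a log2 fold change of -1.63 ± 0.62 (SE, adjusted p = 0.538) and of 0.69 ± 0.31 (SE, adjusted p = 0.657) without wild-type replicates 2 and 4. Without those 2 libraries Cpt2 had 0.38 and Decr1 0.24, the median of the 37 was 0.22 and 3 genes had an unadjusted p under 0.05.

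Double KO against wild type gave the widest set of small differences. The log2 fold change was above 0 for 33 of 37 genes, with a median of 0.48 against -0.01 over all genes; with library totals alone, which lower the median of all genes to -0.92, it was below 0 for 35. edgeR called 0 of 37, against 1.53% of all genes, and 15 (40.5%) had an unadjusted p under 0.05, against 22.8% of all genes. DESeq2 called 1 (Cpt1b, adjusted p = 0.0189), against 6.33% of all genes, and voom called 1 (Cpt1a, adjusted p = 0.0278), against 6.14%. In 11 of 37 genes (29.7%) all double KO libraries lay above all wild-type libraries, against 5.36% of all genes. These were Acsl1, Cpt1b, Cpt2, Slc25a20 (the carnitine-acylcarnitine carrier), Acadl, Hadha, Hadh, Eci1, Decr1, Etfdh and Acot2.

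Acsl1 was at 485, 474, 605 and 491 CPM in double KO, against at most 409 CPM in wild type, and its log2 fold change was 0.75 ± 0.26 (SE, adjusted p = 0.124). Acadl, the long-chain acyl-CoA dehydrogenase, was at 654, 297, 661 and 538 CPM in wild type and 736, 708, 893 and 774 in double KO. Its log2 fold change was 0.53 ± 0.20 (SE, adjusted p = 0.151), and wild-type replicate 2 lay far below every other library. Etfdh was at 347, 108, 346 and 219 CPM in wild type and 373, 357, 464 and 386 in double KO, with a log2 fold change of 0.63 ± 0.27 (SE, adjusted p = 0.184). The lowest double KO value of Etfdh was close to wild-type replicates 1 and 3. Decr1 was at 283, 259.6, 345 and 291 CPM in double KO, with 0.53 ± 0.19 (SE, adjusted p = 0.131). Acot2 had 1.34 ± 0.47 (SE, adjusted p = 0.129), which was 0.81 with an adjusted p of 0.053 when Fgf21 KO replicate 2 and double KO replicate 3 were left out. Angptl4 had -1.80 ± 0.64 (SE, adjusted p = 0.133), and 0.50 ± 0.31 (SE, adjusted p = 0.632) without wild-type replicates 2 and 4. edgeR called Acot2 without Fgf21 KO replicate 2, a library outside this comparison that was high for Acot2, so this call is not counted as support. Angptl4 was called, as lower, without wild-type replicate 1 or wild-type replicate 3. Without wild-type replicates 2 and 4 together, Acsl1 had 0.36, Acadl 0.24, Etfdh 0.185 and Decr1 0.27. The median of the β-oxidation cycle went from 0.53 to 0.12 with 2 of 9 genes below 0, the median of the 37 was 0.24, edgeR called 0, and 3 genes had an unadjusted p under 0.05.

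Double KO was set against Clpp KO to ask what Fgf21 loss adds when Clpp is absent. Here Ucp3 and Angptl4 were at lower levels in double KO, with groups that did not overlap. Ucp3 was at 65.4, 51.5, 79.9 and 54.9 CPM in Clpp KO and 45.1, 24.1, 38.6 and 22.6 in double KO, with a log2 fold change of -0.95 ± 0.36 (SE, adjusted p = 0.994) and an unadjusted p of 0.0193. Angptl4 was at 14.0, 11, 21.9 and 10.1 CPM in Clpp KO and 8.05, 4.89, 8.82 and 4.78 in double KO, with -1.10 ± 0.63 (SE, adjusted p = 0.994) and an unadjusted p of 0.102. Cpt1a was at 36.7, 32.6, 38 and 33.6 CPM in Clpp KO and 31.1, 28.2, 30.6 and 26.8 in double KO, with -0.27 ± 0.19 (SE, adjusted p = 0.994). These 3 genes (8.11% of the 37) lay wholly below Clpp KO, against 2.67% of all genes. Acadm, the medium-chain dehydrogenase, and Hadh, the short-chain hydroxyacyl dehydrogenase, lay wholly above it (5.41%, against 3.11% of all genes), with log2 fold changes of 0.19 ± 0.28 and 0.20 ± 0.23. edgeR called 0 of 37, against 0.0590% of all genes, and 1 gene (Ucp3) had an unadjusted p under 0.05. DESeq2 and voom called 0 as well, against 0.229% and 0.262% of all genes. They had 1 and 4 genes under 0.05 unadjusted, counts that are not read as results. The median log2 fold change of the 37 was 0.17, with 29 above 0, and 20 with library totals alone.

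Against Fgf21 KO, double KO showed no gene of the 37 with an unadjusted p under 0.05 by edgeR or DESeq2 and 3 by voom. All 3 tools called 0, against 0.892%, 1.37% and 2.42% of all genes, and the groups overlapped for every gene, while 3.88% of all genes lay wholly higher in double KO. Median log2 fold change was 0.04, with values from -0.46 (Ucp2) to 0.44 (Acot2); with library totals alone all 37 lay below 0 (all-gene median -0.70). The gene with the smallest p was Etfb, at 574, 419.5, 445 and 350.2 CPM in Fgf21 KO and 326, 376, 414 and 387 in double KO, with -0.25 ± 0.17 (SE, adjusted p = 0.807).

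Pooled over both Fgf21 genotypes, loss of Clpp gave log2 fold changes above 0 in 30 of 37 genes, with a median of 0.18 against -0.02 over all genes, and below 0 in 35 with library totals alone (all-gene median -0.75). edgeR called 0 of 37, against 5.11% of all genes, and 6 (16.2%) had an unadjusted p under 0.05, against 25.4% of all genes. DESeq2 called 1 (Cpt1b), against 10% of all genes, and voom 10 (27%), of which 7 were higher and 3 lower, against 21.3% of all genes (10.6% higher and 10.6% lower). By voom, Cpt1a had 0.59 ± 0.08 (adjusted p = 5.33e-05), Ucp3 1.04 ± 0.20 (adjusted p = 0.00273) and Acot2 0.86 ± 0.20 (adjusted p = 0.0103), and the lower genes were Lpl, Acads and Etfb. The part of wild-type replicates 1 and 3, which may not be independent, in these voom values was not tested. By edgeR the fold changes were 0.31 ± 0.14 (SE, adjusted p = 0.172) for Cpt1a, 0.47 ± 0.25 (SE, adjusted p = 0.254) for Ucp3 and 0.79 ± 0.33 (SE, adjusted p = 0.152) for Acot2. Without wild-type replicates 2 and 4 the edgeR values were 0.46 for Cpt1a and 0.80 for Ucp3, and Angptl4 went from -0.43 to 0.72. The β-oxidation cycle then went from 7 of 9 genes above 0 (median 0.18) to 3 of 9 (median -0.03), and the median of the 37 was 0.03. Leaving out Fgf21 KO replicate 2 alone, edgeR called Acot2 and Cpt1a. That library was high for both, at 3.91 and 1.82 times the median of the other 3 Fgf21 KO libraries. Omitting it lowers the side with Clpp and the spread of these genes, so these 2 calls are not counted as support.

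Loss of Fgf21, pooled over both Clpp genotypes, had 31 of 37 genes above 0 with a median of 0.29 against 0.00 over all genes, and 29 with library totals alone. edgeR called 0, against 0.144% of all genes, with 11 genes (29.7%) at an unadjusted p under 0.05, against 11.7% of all genes. DESeq2 and voom also called 0, against 0.492% and 4.50% of all genes. They had 15 and 10 genes under 0.05 unadjusted, without the share of all genes, and these counts are not read as results. Cpt2 had the smallest p, with 0.40 ± 0.13 (SE, adjusted p = 0.415), and Angptl4 had -1.37 ± 0.44 (SE, adjusted p = 0.415). Without wild-type replicates 2 and 4 Angptl4 had -0.21 and the median of the 37 was 0.16. The interaction (double KO minus Clpp KO, less Fgf21 KO minus wild type) was below 0 for 34 of 37 genes with a median of -0.25, and for 33 with library totals alone. Without wild-type replicates 2 and 4 it was below 0 for 22 and above 0 for 15, with a median of -0.06. The β-oxidation cycle went from 0 genes above 0 (median -0.25) to 8 of 9 (median 0.07), and Angptl4 from 0.53 to -1.80. The tools called 0 of 37 for the interaction (edgeR 0%, DESeq2 0.0197% and voom 0.00656% of all genes). They had 0, 0 and 4 genes under 0.05 unadjusted, again not read as a result. Ucp3 had the smallest edgeR p, with -0.85 ± 0.51 (SE, adjusted p = 1).

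Of 84 other genes of the pathway, 83 passed the filter (Slc27a6 did not). Set against wild type, Clpp KO had 1 gene called lower and 0 higher by edgeR, and double KO had 1 called higher and 0 lower. Clpp loss pooled had 2 called higher and 2 lower. The shares called, 1.2%, 1.2% and 4.82% of the 83, were no higher than the 1.63%, 1.53% and 5.11% of all genes. The other 5 comparisons had 0 in either direction. Genes at an unadjusted p under 0.05 numbered 23 between Clpp KO and wild type, 31 between double KO and wild type, 21 for Clpp loss pooled, 16 between Fgf21 KO and wild type, 6 between double KO and Clpp KO, 4 between double KO and Fgf21 KO, 0 in the interaction and 18 for Fgf21 loss pooled. These are counts out of 83 without the share of all genes beside them, and they are not read as a result about the pathway.

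Mgll, the lipase that frees the last fatty acid from stored triglyceride, was the 1 of these genes whose call stood when any library was left out. It was at 111, 100.2, 109 and 101 CPM in wild type, 132, 117, 128 and 98.5 in Fgf21 KO, 80.8, 61.1, 74.4 and 70.4 in Clpp KO and 84.5, 70.5, 87.7 and 103 in double KO. Mgll fell with Clpp loss pooled, by 0.51 ± 0.09 on the log2 scale (adjusted p = 0.00384), and this call stood in all 28 alternatives. Library totals alone, among them, lower most genes with Clpp loss, so the call there adds no support. Only double KO replicate 4 lay among the libraries with Clpp. In Clpp KO against wild type Mgll had -0.55 ± 0.13 (SE, adjusted p = 0.0409), a call lost without any 1 of 10 of the 16 libraries, each Clpp KO library among them (adjusted p 0.0355 to 0.131 over the 16).

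Bdh1, a ketone body dehydrogenase, was at 62.0, 7.91, 59.0 and 40.5 CPM in wild type, 71.7, 62.1, 54.5 and 50.7 in Fgf21 KO, 28.8, 18.1, 24.9 and 17.1 in Clpp KO and 16.9, 13.3, 22.0 and 34.4 in double KO. For Clpp loss pooled it had -1.20 ± 0.32 (SE, adjusted p = 0.0478). Wild-type replicate 2 was the lowest library of all, and the call was lost without any 1 of 14 libraries, the exceptions being wild-type replicate 2 and double KO replicate 4. Cat was at 138, 60.9, 139 and 102 CPM in wild type and 231, 186, 216 and 205 in Clpp KO, with 0.77 ± 0.20 (SE, adjusted p = 0.0405) for Clpp loss pooled, and Txnip, a regulator of glucose uptake, had 0.47 ± 0.12 (SE, adjusted p = 0.0408). Their calls were lost without any 1 of 12 and 11 libraries. Acsf2, a medium-chain acyl-CoA synthetase, was at 24.5, 10.3, 24.7 and 15.8 CPM in wild type and 40.9, 28.3, 48.4 and 39.6 in double KO, with 1.06 ± 0.24 (SE, adjusted p = 0.0422) and a call lost without any 1 of 11 libraries. Among the genes not called, the smallest p belonged to Pex11a (0.47) and Ppargc1b (0.63) between Fgf21 KO and wild type, and to G0s2 (1.16) and Slc25a29 (0.61) between double KO and Clpp KO, all as log2 fold changes. Between double KO and Fgf21 KO they were Mgll (-0.46) and Bdh1 (-1.47), in the interaction Gpam (-0.82) and Pex11a (-0.38), and for Fgf21 loss pooled Slc25a29 (0.61) and Acot7 (0.32).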

How the data were processed

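Total RNA of cardiac tissue was extracted with TRIzol, per the labels. The authors deposited 1 table of whole-number counts per gene; fastp 0.21.0, kallisto 0.46.1, edgeR 3.32.1, DESeq2 1.30.1, R 4.0.3 and the build GRCm38.p6 stand in the submitters' processing notes, without role or order, and how estimates became whole counts is not stated there.

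Groups came from the labels. Genes were kept by edgeR's filter (count minimum 10, total 15), leaving 15255. The main test was edgeR 4.0.16 quasi-likelihood with TMM over all 16 libraries (R 4.3.3), with Benjamini-Hochberg adjustment at 0.05 and 12 residual degrees of freedom; SE is the fold change divided by the root of F. DESeq2 1.42.0, limma 3.58.1 (voom), other scalings, covariates, a replicate block and omitted libraries were alternatives. Scaling can change directions here, since mitochondrial transcripts fill more of the libraries without Clpp. Scripts were tested on simulated data.

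The 37 genes and all lists were chosen with earlier results of these data known. All 37 are named genes; values in every library were to be given for each called gene and for the gene with the smallest p in each role, and other genes shown in full were chosen after their values were seen. Other pathway genes were named if called, or as the 2 with the smallest p.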

Additional observations from a re-analysis of the deposited data

Results flagged for a closer look

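In 22 of 148 groups of 4 libraries (37 genes in 4 genotypes) 1 library lay apart from the other 3, by a gap above Dixon's critical value for 4 samples; chance gives about 1 in 20. All 22 came from 4 libraries. Double KO replicate 3 lay above its group for 8 genes. These included Cd36 (1404 CPM, others 803 to 884), Slc27a1 (257 CPM, others 121 to 140.1), Acsl1 (605 CPM, others 474 to 491) and Cpt1b (666 CPM, others 510.3 to 525). The rest were Mlycd (144 CPM, others 71.4 to 82.5), Ehhadh (13.8 CPM, others 6.50 to 7.12), Acot1 (73.7 CPM, others 8.87 to 11.4) and Acot2 (166 CPM, others 51.8 to 66.0). Fgf21 KO replicate 2 lay above its group for 6 genes. These included Slc27a1 (287 CPM, others 109 to 124), Ehhadh (16.1 CPM, others 5.71 to 7.24) and Acot1 (73.0 CPM, others 7.29 to 10.1). The rest were Acot2 (145 CPM, others 32.7 to 40.7), Pdk4 (1442 CPM, others 194 to 289) and Plin2 (51.5 CPM, others 27.9 to 29.8). Clpp KO replicate 2 lay below its group for 7 genes, first Fabp3 (1463 CPM, others 1973 to 2070), Slc25a20 (94.8 CPM, others 121 to 125) and Acadvl (534 CPM, others 699 to 706). The rest were Acadl (603 CPM, others 725 to 742), Hadh (295 CPM, others 358 to 370.3), Decr1 (201 CPM, others 260.3 to 268) and Etfa (287 CPM, others 336 to 342). Fgf21 KO replicate 4 lay below its group for Eci1 (128 CPM, others 180.2 to 185). Genes measured in 1 library share its error, so the 22 are not independent.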

How the results depend on the processing

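Over 37 followed log2 fold changes and up to 29 alternatives, 927 of 1062 values kept direction and side of the threshold, 85 lost a call, 27 gained one and 23 reversed. These 37 fold changes are not 1 for each of the 37 genes. Some genes stand in several comparisons, and other pathway genes are included. Of the 37 genes edgeR called 0 in each comparison, so the lost calls are those of other pathway genes. In Clpp KO against wild type, DESeq2 called 1, voom 8, library totals alone 18, a fit of the 2 groups alone 1 (Acot2), the fit without wild-type replicates 2 and 4 1 (Angptl4), the atrial covariate 1 (Ucp2), and omission of Fgf21 KO replicate 2 and double KO replicate 3, chosen after seeing the data, 2. In double KO against wild type the counts were DESeq2 1, voom 1, library totals alone 21, and 1 (Angptl4) with wild-type replicates 1 and 3 summed. In double KO against Fgf21 KO library totals alone called 28. For Clpp loss pooled, DESeq2 called 1, voom 10, library totals alone 29 and omission of both high libraries 1. In each of these comparisons library totals alone put the median of all genes, and most of the 37, below 0. Those counts have no share of all genes beside them and are not read as results about the 37 genes. The same holds for any other alternative whose share of all genes is not given above. Leaving out 1 library gave 0 to 1 in double KO against wild type, 0 to 2 for Clpp loss pooled and 0 elsewhere. With library totals alone the reversed values were, in double KO against wild type, Acsl1 -0.079, Acadl -0.31, Decr1 -0.33, Etfdh -0.185 and Cpt1b -0.41. In Clpp KO against wild type they were Ehhadh -0.021, Ppara -0.081, Cpt1b -0.33, Acsl1 -0.056 and Cpt1a -0.43, and for Clpp loss pooled Cpt1b -0.43 and Txnip -0.265. Voom reversed Ucp2 in Clpp KO against wild type (0.21) and for Clpp loss pooled (0.058), and Angptl4 against wild type in Clpp KO (1.64), Fgf21 KO (0.495) and double KO (0.30). Without wild-type replicates 2 and 4 the values were 0.22 for Ucp2 in Clpp KO, and 1.615, 0.69 and 0.50 for Angptl4 in the same order. Angptl4 in Clpp KO was 0.69 with the fat covariate and, leaving out 1 library, ran from -1.04 (without wild-type replicate 3) to 0.089 (without wild-type replicate 4). The cause of these changes was not tested. The median level per kb in wild type was 65.2, and 39.4 with merged exon length. With the replicate block 0 of the 37 genes were called in all 8 comparisons; of the 6 calls on other pathway genes it ended 4 (adjusted p 0.0784 for Cat, 0.0597 for Txnip and 0.0667 for Bdh1 with Clpp loss pooled, and 0.0574 for Mgll in Clpp KO) and left Mgll with Clpp loss pooled (0.00665) and Acsf2 (0.0364). Same-numbered libraries did not deviate together (r -0.228 to 0.364), and 3 of 16 libraries correlated best with their own number.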
